A study of Mus musculus with 4 samples.

Results

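The AP-1 transcription factors Fos, Fosb, Fosl1, Fosl2, Jun, Junb, Jund and Atf3 were read from arrays of cells sorted from the mouse submandibular salivary gland. Members were all non-control probes that carry the symbol of 1 of these 8 genes, which gave 8 of the 36282 genes on the array and 9 of its 55681 probes, with 2 for Fosl2. The groups were stem cells and non-stem cell epithelia, each measured on 2 one-colour arrays. Both came from C57BL/6 mice 8 to 10 weeks of age by flow cytometric sorting, with no treatment or transgene named. The sample labels do not name the sort markers, and no gene tied to the sort gate was set apart. The labels do not tie the replicates to separate animals, so p-values reflect the spread among these arrays, which may be technical.

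AP-1 is a dimer of bZIP proteins. Each partner brings a basic region that contacts DNA and a leucine zipper that holds the pair together. Jun proteins pair with each other or with Fos proteins, whereas Fos proteins need a Jun partner, and Atf3 pairs with Jun proteins or with itself. Fos, Fosb, Jun, Junb and Atf3 are immediate early genes, switched on within minutes by growth factors, stress or calcium through MAP kinases, while Jund and Fosl2 tend to be steadier. In squamous and glandular epithelia the family is known for its part in proliferation, wound repair and differentiation.

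The promoters of Fos, Fosb, Jun and Atf3 are printed because these genes are the textbook cases of control by signal-activated elements close to the start site. The sequences are from RefSeq (GRCm38.p6), run from -140 to -1 before the start site, and are written on the strand of the gene, and 7 of the 8 members matched the table. The windows lie at chr12:85473750-85473889 (plus strand) for Fos, chr7:19310046-19310185 (minus) for Fosb, chr4:95052223-95052362 (minus) for Jun and chr1:191183334-191183473 (minus) for Atf3. Capitals mark TGACG on either strand (the core of the cAMP response element bound by CREB and ATF proteins), TGACATCA on either strand (the AP-1 element known in the Jun promoter) and TATAAA on the strand of the gene.
Fos: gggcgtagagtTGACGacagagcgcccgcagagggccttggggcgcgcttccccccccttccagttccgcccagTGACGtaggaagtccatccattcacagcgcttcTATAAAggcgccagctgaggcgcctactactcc
Fosb: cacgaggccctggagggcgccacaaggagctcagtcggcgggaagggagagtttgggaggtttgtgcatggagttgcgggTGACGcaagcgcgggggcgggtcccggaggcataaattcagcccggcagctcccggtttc
Jun: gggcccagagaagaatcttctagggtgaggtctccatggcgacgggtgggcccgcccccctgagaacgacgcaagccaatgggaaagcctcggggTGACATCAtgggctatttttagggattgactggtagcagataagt
Atf3: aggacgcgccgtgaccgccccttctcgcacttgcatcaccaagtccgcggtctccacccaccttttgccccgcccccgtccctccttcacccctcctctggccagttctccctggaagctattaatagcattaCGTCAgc

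TGACG lay at -129 to -125 and at -66 to -62 in Fos, at -60 to -56 in Fosb, and at -7 to -3 on the opposite strand in Atf3. Junb had a copy at -106 to -102. Over the 250 bases before the start site, 17.8% of 32851 RefSeq promoters hold this motif. TGACATCA lay at -45 to -38 in Jun and occurs in 2.93% of promoters. TATAAA lay at -33 to -28 in Fos and occurs in 7.59%. The palindrome TGACGTCA, which contains TGACG (1.55% of promoters), and the AP-1 consensus TGACTCA (4.46%), both searched on both strands, were not found in the 250 bases of any of the 7 matched members. These matches are letters in a window and not measured sites.

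Relative to the bulk of transcripts on each array, of the 7 AP-1 genes tested, Fosb, Fosl2, Jun and Atf3 were higher in stem cells, by 2.28-fold for Atf3 up to 4.59-fold for Fosb. Junb was lower, at the edge of the threshold. Fos and Jund did not pass it, with higher means in stem cells. No array had Fosl1 well above background, and it was not tested. Over all 17362 genes, 14.1% were called higher and 16.8% lower, or 30.9% in either direction, at a limma adjusted p under 0.05, against 4 higher and 1 lower of the 7 AP-1 genes. The median log2 difference, stem cells minus non-stem cell epithelia, was 1.19 over the 7 genes and -0.01 over all genes tested. With each probe tested on its own, 5 of 8 AP-1 probes were higher and 0 lower, against 12.9% of all tested probes higher, 15.9% lower and 28.8% in either direction. Of those 5, the dimmer Fosl2 probe passed the filter only through stem cells, so its direction was fixed by the filter. The groups did not overlap for any of the 7 genes, with 6 higher and 1 lower. That also held for 71.0% of all genes tested, 34.7% higher and 36.3% lower. These differences are relative to each array's own 75th percentile of signal, and bulk arrays cannot tell more transcript per cell from more cells that carry it.

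The 75th percentile of signal was 30.4 and 43.3 intensity units in stem cells against 74.8 and 63.0 in the other group. Across arrays 35.7% to 42.3% of spots were well above background, and no AP-1 spot was saturated or marked as an outlier. Having 2 arrays per group limits precision throughout. Spike-in probes, added in fixed amounts, stood 2.26 higher on the log2 scale against the 75th percentile in stem cells. On a scale set by those spike-ins, chosen after the data were seen, all 7 AP-1 differences were below 0, from -0.06 for Fosb to -3.20 for Junb, and the median over all genes was -2.27. The part of labelling or RNA content in this shift was not tested. Every direction given for a gene is therefore its change relative to the bulk of transcripts on the same array.

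Fosb, the Fos protein whose truncated form ΔFosB is known to persist in cells after a stimulus, had the largest AP-1 difference among the tested genes. Its log2 signal relative to the 75th percentile was 4.90 and 4.85 in stem cells, against 2.57 and 2.78 in the other group. Both stem cell arrays lay above both others by far more than the spread within either group. The difference was 2.20 ± 0.16 (SE, n = 2 arrays per group; limma adjusted p = 0.00081), larger than in 98.2% of genes tested. The signal before scaling was also higher, at 909 and 1245 intensity units in stem cells against 445 and 432. The probe lies on chromosome 7 at 19888168 to 19888227 (mm9, minus strand), from base 3593 of the transcript. Whether it tells ΔFosB from the full-length form was not tested. The call was kept under every alternative except the spike-in scale, with a smaller difference of 1.53 under normexp.

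Fosl2 encodes Fra-2, a Fos protein without the strong activation domain of Fos. Its brighter probe, from base 5726 of the transcript (chromosome 5, 32460076 to 32460135, plus strand), read 2.62 and 2.50 in stem cells, against 0.94 and 1.08. The difference was 1.55 ± 0.16 (limma adjusted p = 0.0022), or 2.93-fold. The second probe, from base 738 (32455088 to 32455147), was well above background on both stem cell arrays, at -0.91 and -1.17, and on neither non-stem array. On the 75th percentile scale stem cells were at least 2.77-fold higher by this probe, a lower bound set against the dimmest signal called well above background on each non-stem array, or the probe's own signal where that was higher. This probe passed the filter through stem cells alone, so its direction is no independent support for the other. Its fitted log2 difference of 2.56 was 0.57 with normexp background correction and 0.31 on the spike-in scale. The brighter probe gave 0.82 with normexp and -0.71 on the spike-in scale.

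Fos, the archetype of the family, had 10 spots per array. These show the spread within an array and leave out error of labelling, hybridization and scaling. The mean log2 signal of Fos was 5.93 on both stem cell arrays, against 5.49 and 5.42. The SD over the 10 spots of an array was 0.02 to 0.04. Spots of different groups did not overlap, since the lowest stem cell spot read 5.88 and the highest non-stem spot 5.55. The difference of 0.47 ± 0.15 did not pass the threshold over all genes (limma adjusted p = 0.063), with an unadjusted 95% interval of 0.10 to 0.85. It passed with quantile normalization (adjusted p = 0.038), with the percentile over detected probes (0.027), with the filter on all 4 arrays (0.036) and with an intensity trend and robust variances together (0.0014), and it was -0.018 with normexp background correction. Before scaling, the signals of 1851 and 2640 in stem cells lay below the 3359 and 2700 of non-stem cell epithelia. The probe lies on chromosome 12 at 86817900 to 86817959 (plus strand), from base 1773.

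Fosl1, which encodes Fra-1, the Fos protein of invasive and migrating cells, gave signals of 4.39 and 8.06 intensity units in stem cells, against 2.73 and 2.92. None of these was well above background, so no fold is given. Its probe lies on chromosome 19 at 5455496 to 5455555.

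**Figure D1:**
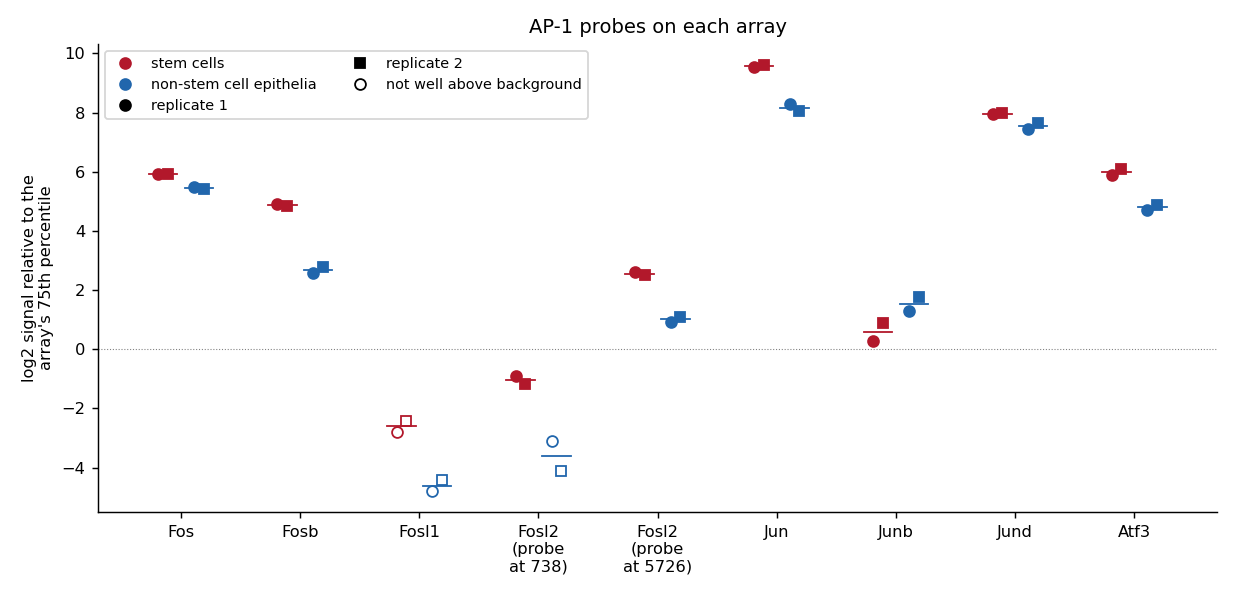
Log2 signal relative to the array's 75th percentile (y axis) for the 9 AP-1 probes (x axis), with 1 point per array, circles for replicate 1, squares for replicate 2, short lines for group means and open points for arrays not well above background. Fosb, the brighter Fosl2 probe, Jun and Atf3 stand 1.19 to 2.20 higher in stem cells, Fos and Jund 0.47 and 0.41 higher, and Junb 0.94 lower.

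Jun, the strongest activator among the Jun proteins, read 9.54 and 9.60 in stem cells, against 8.27 and 8.04 in the other group. Both stem cell arrays lay above both others. The difference was 1.41 ± 0.16 (limma adjusted p = 0.0033), or 2.66-fold, and 0.94 with normexp. The signal before scaling did not separate the groups, at 22600 and 33529 in stem cells against 23132 and 16605. Its probe lies on chromosome 4 at 94716928 to 94716987 (minus strand), from base 1926.

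Junb, which is known to restrain Jun on some promoters, had a lower mean in stem cells. Its log2 signal was 0.29 and 0.88 in stem cells, against 1.30 and 1.75. The groups did not overlap, but arrays of a group lay further apart than for the other 6 tested genes. The gene fell by 0.94 ± 0.27 (limma adjusted p = 0.049), or 1.92-fold. The call was lost in the fit that kept all probes apart (adjusted p = 0.055) and under 9 of 14 alternatives other than the spike-in scale. Without stem cells replicate 1 the adjusted p was 0.050, without non-stem cell epithelia replicate 1 it was 0.097, and without their replicate 2 it was 0.24. Before scaling its signals were 37.1 and 79.8 in stem cells, below the 184 and 212 of the other group. The single probe starts at base 677 of the transcript (chromosome 8, 87501881 to 87501940, minus strand), and no other probe bears on it.

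Jund, the most constant Jun protein, read 7.94 and 7.98 in stem cells, against 7.46 and 7.65. The difference of 0.41 ± 0.16 did not pass (limma adjusted p = 0.11), with an unadjusted 95% interval of 0.01 to 0.81, and it was -0.10 with normexp. It passed when the percentile was taken over detected probes (adjusted p = 0.0496) and with an intensity trend and robust variances together (0.0021). Before scaling, its signals were lower in stem cells, at 7479 and 10943 against 13157 and 12606. Its probe lies on chromosome 8 at 73224436 to 73224495 (plus strand), from base 2798.

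Atf3, a stress-induced bZIP protein that represses as a dimer of itself, read 5.88 and 6.09 in stem cells, against 4.72 and 4.88. Both stem cell arrays were above both others. The difference was 1.19 ± 0.17 (limma adjusted p = 0.0060), or 2.28-fold, and 0.65 with normexp. The call was lost without non-stem cell epithelia replicate 1 (adjusted p = 0.054), without replicate 2 (0.051) and with no filter (0.065). Before scaling, 1793 and 2949 in stem cells enclosed the 1966 and 1848 of the other group. Its probe lies on chromosome 1 at 192994547 to 192994606 (minus strand), from base 1545.

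**Figure D2:**
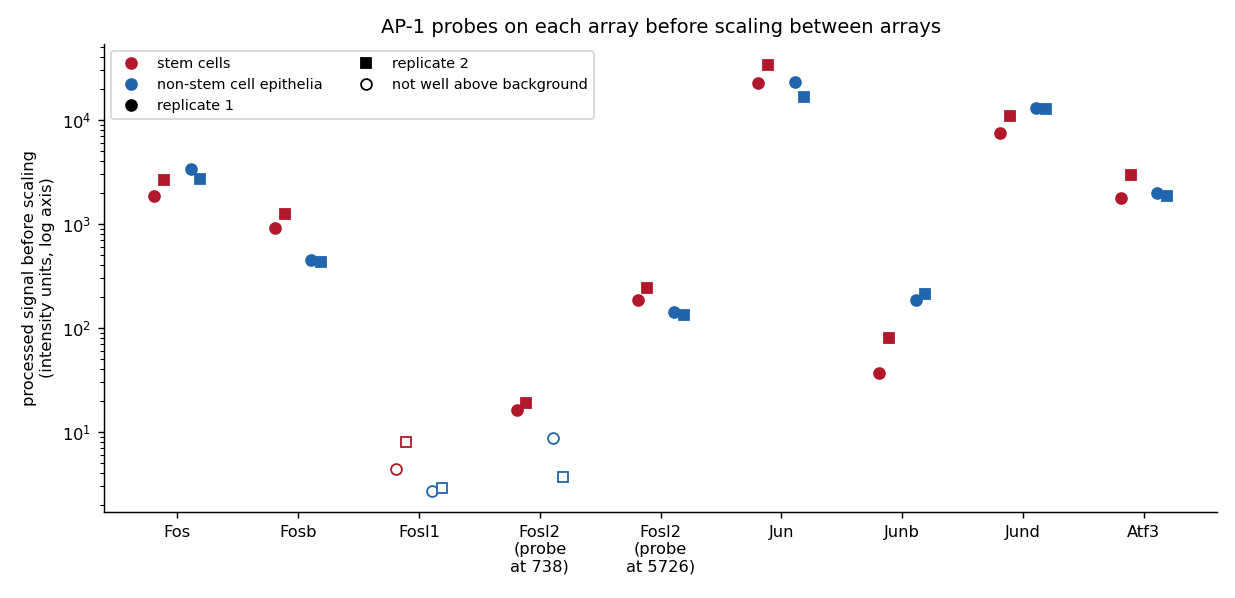
Processed signal before scaling between arrays (y axis, intensity units, log axis) for the 9 AP-1 probes (x axis), with 1 point per array and open points for arrays not well above background. Fosb and both Fosl2 probes are higher on both stem cell arrays without any scaling, Junb, Fos and Jund are lower, and the arrays of Jun and Atf3 overlap between groups.

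Differences between 2 AP-1 genes on the same array do not change when a whole array is shifted, so they are the same on the spike-in scale. They mix the response of 2 probes, so their size has no meaning as a ratio of transcripts and only their change between groups is read. Fos minus Fosb was 1.03 and 1.08 in stem cells, against 2.91 and 2.64, a change of -1.72. Fosb minus Jund moved from -4.88 and -4.87 in non-stem cell epithelia to -3.04 and -3.14 in stem cells, a change of 1.79. Within the Jun family, Jun minus Jund was 1.60 and 1.62 in stem cells, against 0.81 and 0.40, and Jun minus Junb was 9.25 and 8.72 against 6.97 and 6.29. Fos minus Jund was -2.01 and -2.05 in stem cells, against -1.97 and -2.22, with overlapping groups. Groups also overlapped for Fosl2 minus Jun, with a change of 0.14, and for Jun minus Atf3, with a change of 0.22. With 2 arrays against 2, an exact permutation test of such a value cannot go below p = 0.33, so these differences between genes are given without a test.

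**Figure D3:**
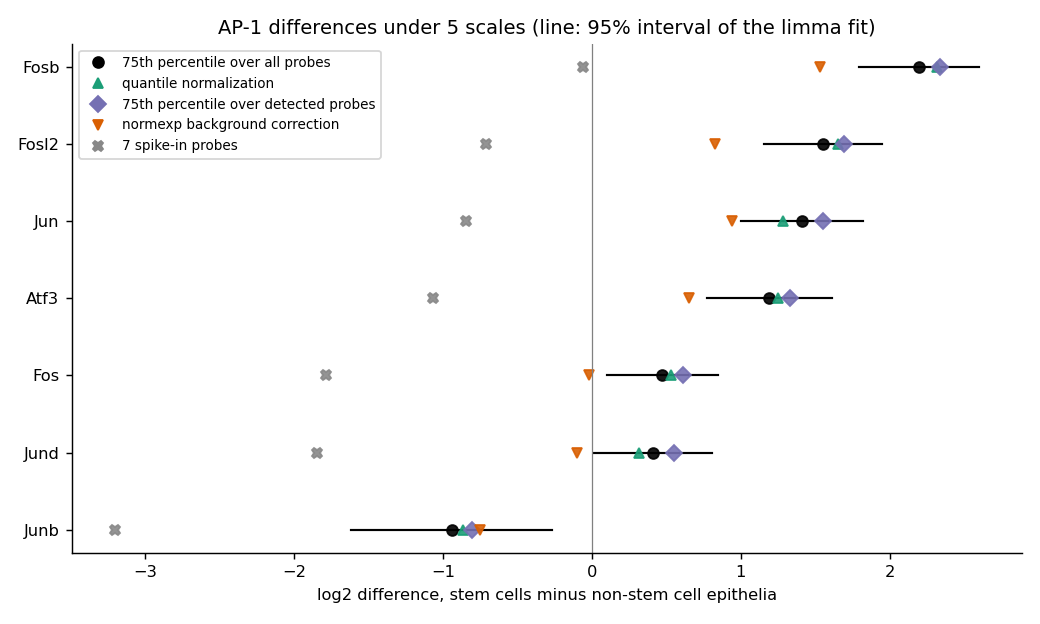
Log2 difference, stem cells minus non-stem cell epithelia (x axis), for the 7 tested AP-1 genes (y axis) under 5 ways of scaling or background correction, with a line for the unadjusted 95% interval of the limma fit on the first. Fosb, Fosl2, Jun and Atf3 lie above 0 and Junb below 0 under the first 4 scales, Fos and Jund cross 0 with normexp, and all 7 lie below 0 on the spike-in scale.

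Other bZIP partners were divided between the groups. Of 28 tested from a list of 33, 5 were higher and 7 lower in stem cells, with a median log2 difference of 0.13. Maff, a small Maf protein without an activation domain, rose by 3.17 ± 0.27 (limma adjusted p = 0.0013), from -0.76 and -1.44 to 1.91 and 2.23. Nfe2l3, a partner of small Maf proteins, rose by 1.51 ± 0.15. Atf5 fell by 2.01 ± 0.18 and Crem, a cAMP-responsive factor, fell by 1.23 ± 0.20, although its other tested probe gave -0.14 and 1 of the 2 stem cell arrays had Crem above background. Partners of Jun that did not pass were Atf2, at 0.00 ± 0.19 (limma adjusted p = 0.99), Batf, at 0.30 ± 0.15 (0.18), and Jdp2, a repressor of AP-1, at 0.18 ± 0.17 (0.47).

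Of 35 tested MAP kinase and induction genes (41 listed), 7 were higher and 6 lower, with a median of 0.06. Srf and Elk4, which together bind the serum response element of Fos and Egr1, rose by 1.43 ± 0.18 and 2.24 ± 0.29. The lowest value among their tested probes was 0.37 for Srf and 0.53 for Elk4. Their relative Elk1 rose by 0.78 ± 0.17 by its 1 tested probe. That probe read 11.70 and 11.40 in stem cells against 10.80 and 10.75, brighter than every AP-1 probe, and its specificity was not tested. Map2k6, a kinase of p38, rose by 1.44 ± 0.16, while Map2k3, another, fell by 0.88 ± 0.17. The p38 genes were split, as Mapk12 fell by 1.40 ± 0.17 and Mapk11 by 1.23 ± 0.18, but Mapk13 rose by 0.67 ± 0.15. The p38 gene Mapk14 did not pass, at 0.23 ± 0.17. Map2k1, which activates ERK, fell by 1.27 ± 0.17. Mapk9, the JNK kinase gene that was tested, fell by 0.79 ± 0.15. Mapk3, an ERK gene, had a difference of -0.29 ± 0.21 (limma adjusted p = 0.32).

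Of 16 tested phosphatases and inhibitors (20 listed), 4 were higher and 2 lower, with a median of 0.16. Dusp1, an immediate early phosphatase of JNK and p38, rose by 1.34 ± 0.15 (limma adjusted p = 0.0030), with 4.94 and 5.01 in stem cells and 3.62 and 3.66 in the other group. Dusp8, another phosphatase of JNK, rose by 1.34 ± 0.30. Dusp6, the ERK phosphatase, fell by 1.28 ± 0.17. Dusp5, 1 of the 2 lower genes, was above background in non-stem cell epithelia alone, so its direction was fixed by the filter. It was at least 1.05-fold lower in stem cells. Of 22 tested genes commonly cited as AP-1 targets (40 listed), 9 were higher and 3 lower, with a median of 0.35. Krt17, a keratin of basal and wounded epithelium that the basal marker list also holds, rose by 3.79 ± 0.16, and the metallothionein gene Mt2 by 1.72 ± 0.17, while Gclc fell by 2.34 ± 0.15. Cd44 fell by 2.27 ± 0.19 by its brightest probe and all 4 of its tested probes were below 0. The protease receptor gene Plaur, 1 of the 3 lower genes, was above background in non-stem cell epithelia alone, so its direction was fixed by the filter. It read -2.22 and -4.12 in stem cells and was at least 5.25-fold lower there. The bounds for Dusp5 and Plaur were set as for the dimmer Fosl2 probe, with the groups exchanged. The matrix metalloprotease genes Mmp3, Mmp9, Mmp10 and Mmp13, classical AP-1 targets, did not reach the filter.

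Of 19 other immediate early genes tested (22 listed), 10 were higher and 3 lower, with a median of 0.62. The zinc finger genes Egr2, Klf6 and Egr1 rose by 2.81 ± 0.15, 2.16 ± 0.18 and 1.83 ± 0.16, and Ccn1 by 1.65 ± 0.15. Of the 3 that were lower, Nr4a2 fell by 1.67 ± 0.19, Ier5 by 1.47 ± 0.30 and Ier2 by 1.04 ± 0.18. The list held both directions, as did the AP-1 genes, where only Junb was lower, at the edge of the threshold. All 5 lists were drawn up with results of these data in view, and their counts stand beside the background of 14.1% higher and 16.8% lower.

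**Figure D4:**
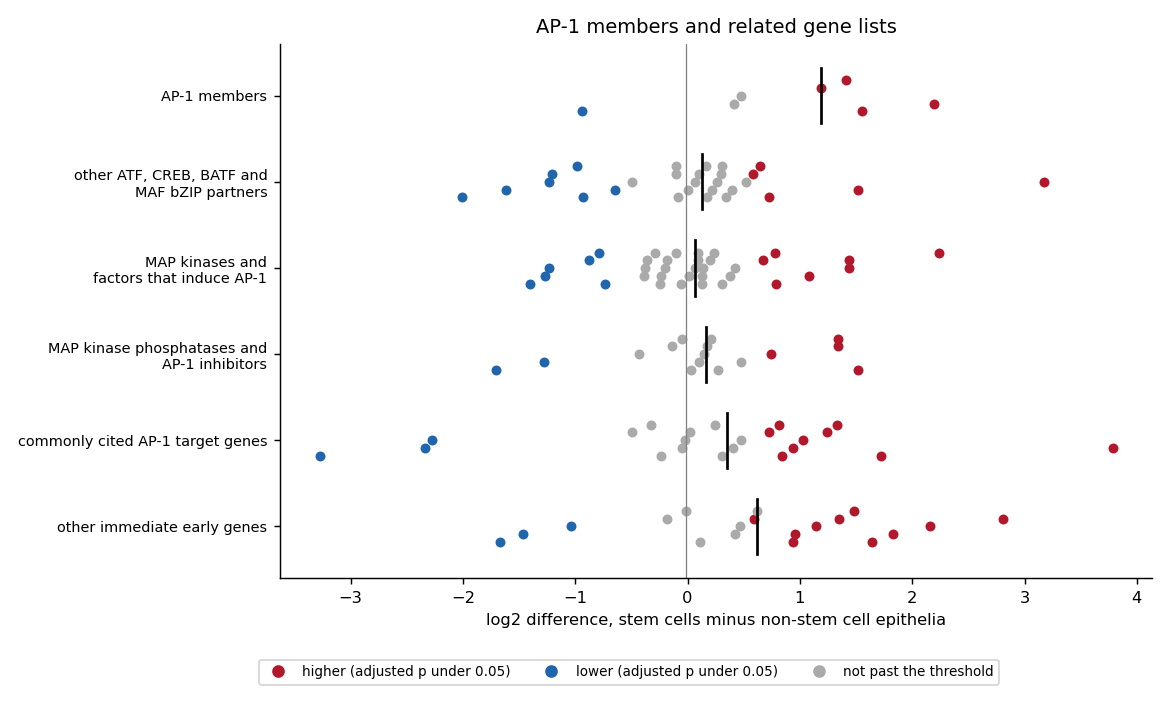
Log2 difference, stem cells minus non-stem cell epithelia (x axis), of every tested AP-1 gene and of 5 related gene lists (y axis), with 1 point per gene coloured by its limma call, a black bar at each list's median and a grey line at -0.01, the median of all genes tested. The AP-1 genes have a median of 1.19, the other immediate early genes 0.62, and the other lists 0.06 to 0.35.

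The genes nearest in profile to each AP-1 gene were found by the root mean square distance of centred log2 values over the 4 arrays. For Fosb these were Krt42 (distance 0.02), Aldh3a1 (0.03) and Dlk2 (0.06). For Fosl2 they were Ltbp1, Arhgap31 and Fmo1, at 0.02 to 0.04, and for Jun they were Prps1, Ahnak and Ccn2, at 0.03 to 0.04. Atf3 lay near Nfkbid and Rusc2 (0.04 each), Fos to Rps25, Pdlim1 and Actg1 (up to 0.01), Jund to Pafah1b3, Car2 and Ptms (0.01 to 0.02), and Junb to Bgn, Hdac8 and Rogdi (0.04 to 0.05). With 4 arrays this distance is set mainly by the size of the group difference.

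Markers of several cell types also differed between the groups, in both directions. The counts of every marker list stand beside 14.1% of all genes tested called higher and 16.8% called lower. All 7 general epithelial markers were well above background on all 4 arrays, with 2 higher and 2 lower in stem cells. Epcam fell by 1.23 ± 0.19 and Cdh1 differed by 0.28 ± 0.15 (limma adjusted p = 0.0083 and 0.21). Of 11 basal and myoepithelial markers 6 were higher and none lower, namely the basal genes Krt5, Krt14, Krt15, Krt17, Cdh3 and Ngfr. The contractile myoepithelial genes did not pass, with Acta2 at -0.11 ± 0.16, Myh11 at -0.21 ± 0.18, Cnn1 at -0.37 ± 0.17 and Tagln at 0.04 ± 0.15. Trp63 did not pass by its brightest probe (0.55 ± 0.17, against 2.99 by its other probe). The summed level of all 11 relative to the 75th percentile was 243 and 249 in stem cells against 114 and 118. Of 14 acinar markers 9 were lower, with sums of 8159 and 7565 against 14485 and 15735, and of 14 granular and other duct markers 12 were higher and 1 lower, with sums of 3235 and 3293 against 1228 and 1199. Of 7 tested endothelial markers (12 listed) 5 were higher, with sums over the list of 33.3 and 34.1 against 13.1 and 13.9. Of those 5, Cd34 and Ramp2 were above background in stem cells alone, so their direction was fixed by the filter. Ly6c1 rose by 3.45 ± 0.17, while Kdr and Pecam1 did not pass, at 0.40 ± 0.18 and -0.51 ± 0.40. No array had Cdh5, Tie1, Emcn or Esam well above background. Of 3 tested fibroblast markers (8 listed) Dcn rose by 2.14 ± 0.16, while Col1a2 and Postn had differences of -0.49 ± 0.17 and -0.37 ± 0.21 and did not pass. The median of the 3 was -0.37, the sums were 22.8 and 24.7 against 10.69 and 10.94, and Col1a1, Lum, Pdgfra and Dpt were not above background. Of 6 tested leukocyte markers (13 listed) 1 was higher, Itgam, which rose by 0.86 ± 0.19 and makes up most of the list's sum, beside 14.1% of all genes called higher. The sums were 91.2 and 70.2 against 44.3 and 51.0, and Ptprc, Cd3g, Cd79b, Ms4a1, Cd68, Adgre1 and Lyz2 were not above background. Of 7 erythroid markers listed 5 were tested and all 5 were lower, with sums of 361 and 395 against 1197 and 1223. The part of cell composition in the AP-1 differences was not tested.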

How the data were processed

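The authors deposited 4 Agilent Feature Extraction files of spot intensity, background-corrected and on a linear scale (version 10.7.3.1 per the file headers, against 9.1 in the submitters' processing notes, a difference that was not resolved), and a series table of log2 values with no stated baseline. Differences between arrays in that table followed the scaled scanner values (r = 1.00 over genes centred on their means). Control spots and outlier spots were left out, and processed signals were put on a log2 scale, shifted by the 75th percentile over non-control probes and averaged per probe. Probes well above background on at least 2 of 4 arrays were tested, a gene by its brightest probe. Two-sided tests used lmFit and eBayes of limma 3.58.1 under R 4.3.3, and p-values were adjusted by Benjamini-Hochberg over 17362 genes, with a threshold of 0.05. The fit was also run on simulated data with independent normal errors and variances drawn as limma had fitted them. Such data leave out error of scaling between arrays, so they cannot bear on it. RefSeq accessions named 26582 probes, and 29099 kept the array's name. The members and lists were chosen with earlier results of these data known. The genes named are the members, up to 4 of smallest p from each list or direct partners, kinases and inhibitors of the members, and the 3 nearest profiles of each member. Some genes that this rule names are not reported here. Any other gene was named after its values were seen. Promoter sequences came from RefSeq (GRCm38.p6), and probe positions (mm9) from the files.

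Alternatives were quantile normalization, a percentile over detected probes, normexp (offset 50) and the deposited log2 values. Other alternatives were no filter or 1 that needs all 4 arrays, robust variances with an intensity trend, the mean of probes, a block for the replicate number and leaving out each array. A scale set on 7 spike-in probes and a crossed block were added after the data were seen.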

Additional observations from a re-analysis of the deposited data

How the results depend on the processing

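Fosb, Fosl2 and Jun kept direction and call under all 14 alternatives other than the spike-in scale, but with normexp they were smaller, at 1.53, 0.82 and 0.94. With normexp Fos turned to -0.018 and Jund to -0.10. On the spike-in scale the values were -0.060 (Fosb), -0.71 (Fosl2 by its brighter probe, against 0.31 by the dimmer, adjusted p = 0.48), -0.85 (Jun), -1.07 (Atf3), -1.78 (Fos), -1.85 (Jund) and -3.20 (Junb). On that scale 0 AP-1 genes or probes were higher, and 5 genes and 4 probes were lower. Over all, 132 genes were higher and 16684 lower. This scale moves every gene by the spike-in shift of 2.26, whose cause was not tested. The lower AP-1 count, 1 gene, was 0 with quantile normalization, the percentile over detected probes, the deposited values, no filter and the mean of probes. The lower AP-1 probe count, 0 at first, was 1 with normexp, the filter on all 4 arrays, robust variances together with an intensity trend, and the replicate block. Over all genes, higher and lower calls were 2454 and 2919, against 1600 and 4743 with normexp, 3314 and 2270 with the percentile over detected probes (median of all genes 0.13), and 841 and 765 with no filter (median 0.43). Leaving out each array gave 679 to 2868 higher and 873 to 3575 lower genes, 3 to 4 AP-1 genes higher and 0 to 1 lower, and 3 to 5 probes higher and 0 to 1 lower. Non-stem cell epithelia replicates 1 and 2 moved these totals most (997 and 1168 without replicate 1, 679 and 873 without replicate 2), and a lone array is assumed to vary like the other group. Where not stated, the cause was not tested.

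Same-numbered arrays deviated with a correlation of -0.10, and the labels give no shared source, so no pairing was assumed. Junb had an adjusted p of 0.0095 with the replicate block and 0.11 with the crossed block. With the replicate block 4 AP-1 genes were higher and 1 lower (2367 and 2965 genes over all), and with the crossed block 4 and 0 (2102 and 2438). No slide or scan block could be fitted, since all 4 arrays lay on 1 slide in 1 scan.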
